A study of Mus musculus with 6 samples.

Results

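The genes described here encode potassium channel subunits, taken as every protein-coding gene on the mouse autosomes with a symbol that starts with Kcn, except Kcnq1 and Kcnq1ot1. There were 91 such genes of 20375 protein-coding autosomal genes that could be placed in a labelled region. The study used Hi-C, a sequencing assay of contacts between distant stretches of chromatin, on E14 embryonic stem cells, a line from a male mouse grown in serum with leukemia inhibitory factor. Cells received esiRNA, an enzymatically made pool of short interfering RNAs, and were collected 48 h after transfection, with 2 libraries in each of 3 groups. Brg1KD cells received esiRNA against Smarca4, the gene of the Brg1 ATPase of the esBAF chromatin remodelling complex. Ino80KD cells received esiRNA against Ino80, which encodes the motor subunit of the remodeller of that name. Control cells received esiRNA against EGFP, a fluorescent protein whose gene is not part of the mouse genome. Replicate numbers are also batch numbers in the labels, so 1 library of each group belongs to each of 2 batches, and nothing states that the replicates were separate cultures. A knockdown is partial and short, and the files hold no measure of either targeted transcript or of expression of any gene.

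Potassium channels let potassium ions cross the cell membrane and set the resting potential and the shape of electrical signals. Voltage-gated subunits open when the membrane depolarizes, inward rectifiers pass current best near the resting potential, and two-pore subunits carry leak current. Most of a further family opens with intracellular calcium or sodium. Auxiliary subunits do not form the pore and tune how the others open. Most of these genes serve neurons, muscle, heart and secretory epithelia and are used little in stem cells. Hi-C maps divide chromosomes into A regions, which are gene-rich and mostly transcribed, and B regions, which are mostly silent and lie near the nuclear lamina.

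The authors gave each library a segmentation into 8 subcompartments, ordered here by rank from 1 (B.2.2, the most B-like) over B.2.1, B.1.2, B.1.1, A.2.2, A.2.1 and A.1.2 to 8 (A.1.1, the most A-like). A gene takes the label of the 50 kb bin that holds its midpoint, and a shift is a difference of mean ranks, in classes, positive towards A. The libraries held 5044 to 5234 segments with a median length of 350 kb, and the depth behind them is not known. Libraries of the same group gave the same label to 68.3 to 69.5% of the 47717 bins labelled in all 6 libraries. The highest share of any pair, 71.7%, was between Ino80KD replicate 2 and Control replicate 2, which share a batch. All 8 embryonic stem cell marker genes of a fixed list, Pou5f1, Sox2 and Nanog among them, lay in A in all 6 libraries. Of 6 fibroblast genes, 3 did so, while Col1a2, Col3a1 and Postn did not. Of all protein-coding genes 67.8% lay in A in all 6 libraries. The 91 midpoints fell in 91 different bins, but neighbours shared segments: 23 and 23 genes in the Brg1KD libraries, 17 and 16 in the Ino80KD libraries, and 18 and 16 in the Control libraries lay in a segment with another member. Kcna2, Kcna3 and Kcna10, or Kcnj1 and Kcnj5, for example, are therefore not independent of each other.

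Potassium channel genes lay in A less often than protein-coding genes as a whole, in every library. In A were 54 and 51 of 91 genes in the Brg1KD libraries, 54 and 52 in the Ino80KD libraries, and 55 and 56 in the Control libraries. The shares were 57.7% ± 2.33 in Brg1KD, 58.2% ± 1.55 in Ino80KD and 61.0% ± 0.777 in Control (SD, n = 2 each), against 71.8, 71.3 and 71.9% of all protein-coding genes. Both knockdown groups had fewer members in A than Control, by up to 5 genes between single libraries, and 2 libraries a group cannot reach an exact permutation p below 0.333. Their mean rank was 5.23 in Brg1KD, 5.22 in Ino80KD and 5.29 in Control cells, against 5.89, 5.87 and 5.89 over all genes. The plot of members by library shows the families side by side.

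**Figure D1:**
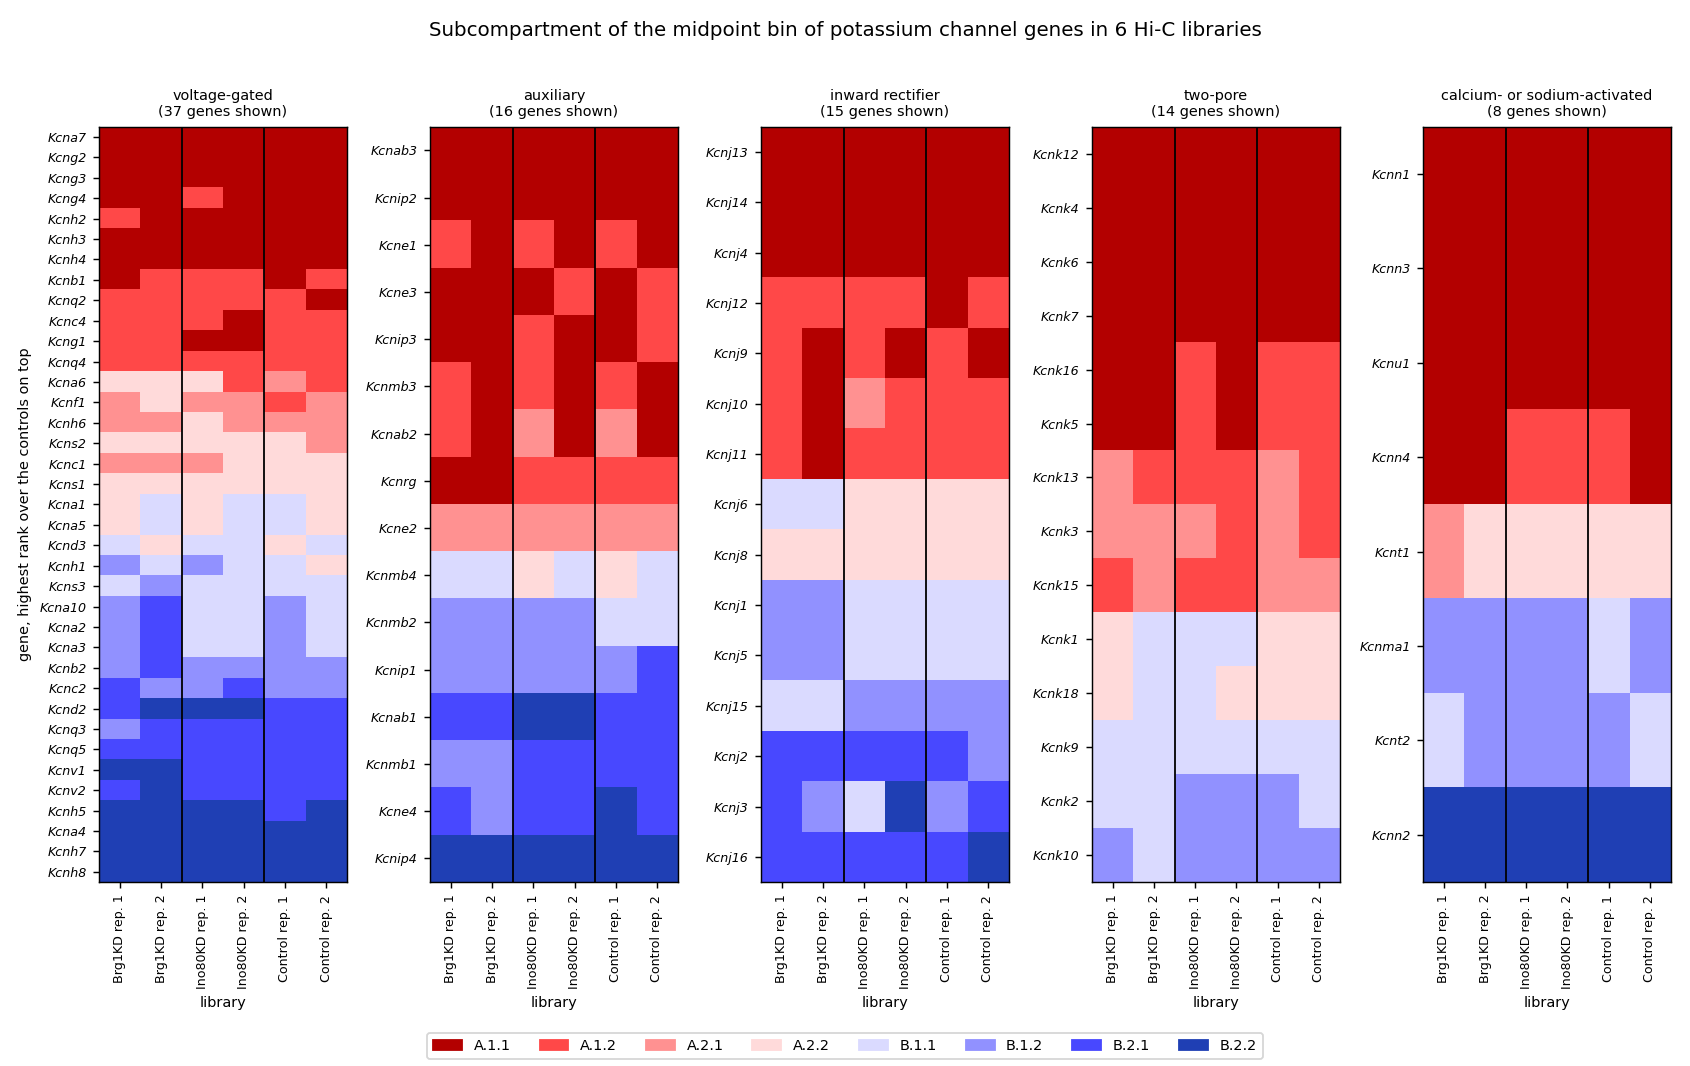
Subcompartment label (colour, A.1.1 dark red to B.2.2 dark blue) of the midpoint bin of 90 of the 91 potassium channel genes (vertical axis, by family, highest mean rank over the Control libraries on top) in 6 Hi-C libraries (horizontal axis, Brg1KD, Ino80KD and Control, 2 replicates each). Every family runs from A to B, and most genes keep their side of the A/B border in all 6 libraries.

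Of the 91 genes, 50 (54.9%) lay in A in all 6 libraries and 33 (36.3%) lay in B in all 6. Of all protein-coding genes 67.8% lay in A and 24.5% in B in all 6. Both A and B labels were found for 8 members (8.79%), against 7.74% of all protein-coding genes. Exactly the same label in all 6 libraries was found for 29 genes (31.9%), against 44.8% of all genes. This smaller share goes with fewer members in the extreme A class: A.1.1 in all 6 libraries held 18 of 91 members (19.8%) and 30.5% of all genes. B.2.2 in all 6 libraries held 5 members (5.49%) and 3.11% of all genes.

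Voltage-gated subunits, the largest family with 38 genes, lay in A in 53.9% ± 1.86 of cases in Brg1KD, 52.6% ± 3.72 in Ino80KD and 55.3% ± 3.72 in Control (SD, n = 2 each). Kcna7 and Kcng2 stood at A.1.1 in all 6 libraries, as did Kcng3, Kcnh3 and Kcnh4. Kcng2 and Kcng3 encode silent subunits that modify other channels. At the other end, Kcna4, which carries a rapidly inactivating current, Kcnh7 and Kcnh8, 2 ether-a-go-go type subunits, stood at B.2.2 in all 6 libraries. Members of 1 subfamily were often apart: Kcnh3 and Kcnh4 lay in A.1.1 and Kcnh7 and Kcnh8 in B.2.2. Kcna genes formed 2 clusters of neighbours, and neither was in A.1.1. On chromosome 3 Kcna2, Kcna3 and Kcna10 carried the same labels, B.1.2 and B.2.1 in Brg1KD, B.1.1 in both Ino80KD libraries, and B.1.2 and B.1.1 in Control. On chromosome 6 Kcna1 and Kcna5, of neuronal and vascular delayed rectifiers, switched between A.2.2 and B.1.1 within each of the 3 groups.

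Auxiliary subunits (16 genes) included Kcnab3 and Kcnip2 at A.1.1 in all 6 libraries. Kcnip2 binds the transient outward channels of the heart. Kcnip4, a neuronal calcium-binding partner of the same channels, was at B.2.2 in all 6. Kcne1, the partner of the slow cardiac delayed rectifier, alternated by batch, with A.1.2 in replicate 1 and A.1.1 in replicate 2 of each group. Kcne4 had B.2.1 and B.1.2 in Brg1KD, B.2.1 in both Ino80KD libraries, and B.2.2 and B.2.1 in Control.

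Among 15 inward rectifiers, Kcnj13, Kcnj14 and Kcnj4 were at A.1.1 in all 6 libraries. Kcnj13 is known from retinal pigment epithelium. The lowest were Kcnj16, Kcnj2 and Kcnj3. Kcnj2, the classical inward rectifier of heart and muscle, and its neighbour Kcnj16 were at B.2.1 in all 4 knockdown libraries, and in Control Kcnj2 was at B.2.1 and B.1.2 and Kcnj16 at B.2.1 and B.2.2. Kcnj3, a subunit of the channels that G proteins open, was the least reproducible member. Its ranks were 2 and 3 in Brg1KD, 4 and 1 in Ino80KD, and 3 and 2 in Control, so the spread within Ino80KD exceeded any difference between groups.

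The 14 two-pore genes were the family most often in A, with 71.4% in Brg1KD, 67.9% in Ino80KD and 78.6% in Control cells. Kcnk12, Kcnk4, Kcnk6 and Kcnk7 were at A.1.1 in all 6 libraries. Kcnk4 encodes a mechanosensitive leak channel. Kcnk2, its close relative, was at B.1.1 in both Brg1KD libraries, B.1.2 in both Ino80KD libraries, and B.1.2 and B.1.1 in Control. Kcnk9, the TASK-3 leak channel, was at B.1.1 in all 6, and Kcnk10 was at B.1.2 in all libraries except Brg1KD replicate 2, where it was at B.1.1. None of the 14 was in a B.2 class in any library.

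The 8 calcium- or sodium-activated genes did not cross the A/B border in any library, with 62.5% in A in all 3 groups. The family was set by symbol, and Kcnu1 was placed in it as a related subunit. Kcnn1, Kcnn3 and Kcnu1 were at A.1.1 in all 6 libraries. Kcnn1, Kcnn2 and Kcnn3 encode small-conductance calcium-activated channels, and Kcnn2 was at B.2.2 in all 6. Kcnma1, the large-conductance BK channel, was at B.1.2 in both Brg1KD and both Ino80KD libraries, and at B.1.1 and B.1.2 in Control.

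Position varied with gene length. Of 16 genes of 250 kb or more, none lay in A in either Brg1KD library, 6.25% did in Ino80KD and 9.38% ± 4.42 in Control (SD, n = 2). All protein-coding genes of that length lay in A in 26.4, 26.2 and 27.9% of cases. Of 34 members under 20 kb, 75.0% lay in A in Brg1KD, 75.0% in Ino80KD and 76.5% in Control, against 69.9, 69.6 and 70.0% of all genes of that length. The 35 members of 20 to 100 kb were in A in 75.7% of cases in Control, and the 6 members of 100 to 250 kb in 25.0%, against 80.2 and 67.0% of all genes. Across the 91 members, the logarithm of length and the mean Control rank had Pearson's r = -0.46 and Spearman's rho = -0.40, and across all 20375 genes 0.09 and 0.017. These are descriptions across genes of the same 2 libraries, and neighbouring genes share segments. The coefficient was below 0 in each family, between r = -0.42 for the inward rectifiers and r = -0.73 for the 8 calcium- or sodium-activated genes. Exceptions were Kcnn3 among the longer genes, at A.1.1 throughout, and Kcna4 among the shorter, at B.2.2.

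**Figure D2:**
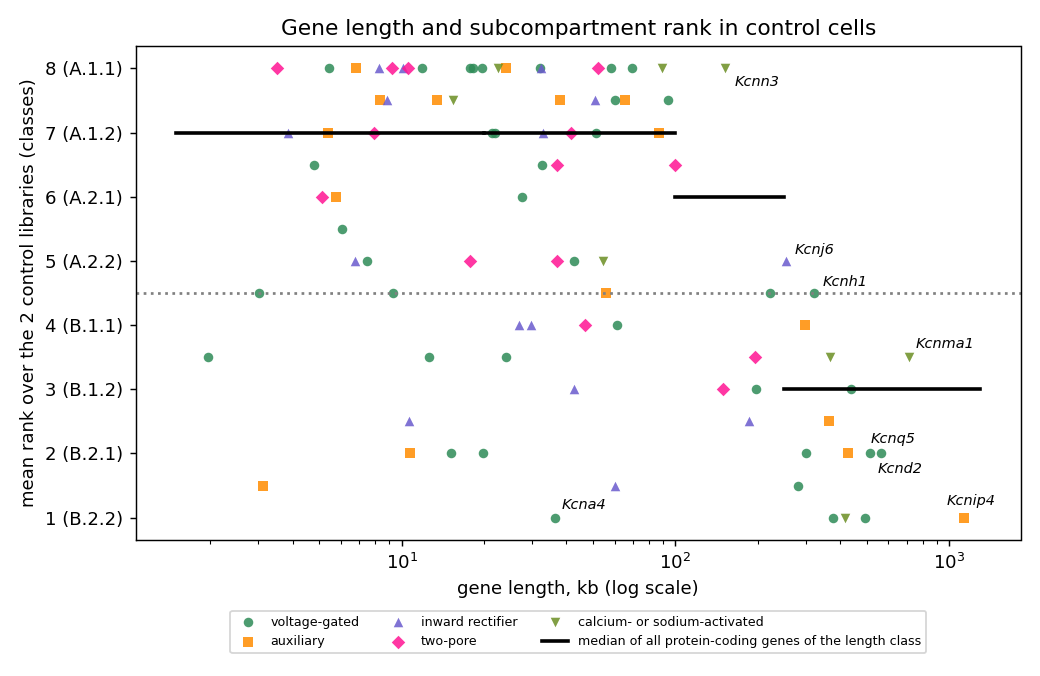
Mean rank over the 2 Control libraries (vertical axis, 1 is B.2.2 and 8 is A.1.1) against gene length in kb (horizontal axis, log scale) for 91 potassium channel genes, with the family as symbol and the median of all protein-coding genes of each length class as a black line. Of the 16 members of 250 kb or more, only Kcnj6 and Kcnh1 reach the dotted A/B border or pass it, and 14 lie below.

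CpG content at the start of transcription followed the compartment less closely in these genes than in the genome. RefSeq promoters of GRCm38.p6, 250 bases before to 50 bases after the 5′-most start in the table, were found for 68 of the 91 genes. Members in A in both Control libraries (n = 37) held a median of 10.0 CpG dinucleotides in that window, and members in B in both (n = 27) a median of 9.0. Over all protein-coding genes the medians were 18.0 in A and 3.0 in B. At least 10 CpG were found at 51.4% of the A members and 44.4% of the B members, against 72.0% and 26.5% of all genes. The promoters of 6 genes are given to show both ends of this range, with every CG in capitals, as the 250 bases upstream of the start. Kcng3 and Kcna7 lay in A.1.1 in all 6 libraries and held 41 and 1 CpG in these bases. Kcnh8 and Kcnip4 lay in B.2.2 in all 6 and held 20 and 6. Kcnj6, with 26, changed sides in Brg1KD, and Kcna10, with 0, has its start in a loop anchor.
Kcng3: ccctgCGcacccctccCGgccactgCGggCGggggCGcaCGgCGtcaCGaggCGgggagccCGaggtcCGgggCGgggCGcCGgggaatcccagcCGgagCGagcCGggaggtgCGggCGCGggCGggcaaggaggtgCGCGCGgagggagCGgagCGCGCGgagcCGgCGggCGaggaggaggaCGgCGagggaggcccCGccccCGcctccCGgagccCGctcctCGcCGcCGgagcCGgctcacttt
Kcna7: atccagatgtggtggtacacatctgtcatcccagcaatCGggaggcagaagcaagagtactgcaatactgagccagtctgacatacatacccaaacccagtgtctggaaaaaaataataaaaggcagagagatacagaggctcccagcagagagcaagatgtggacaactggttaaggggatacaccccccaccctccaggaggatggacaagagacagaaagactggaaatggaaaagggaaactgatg
Kcnh8: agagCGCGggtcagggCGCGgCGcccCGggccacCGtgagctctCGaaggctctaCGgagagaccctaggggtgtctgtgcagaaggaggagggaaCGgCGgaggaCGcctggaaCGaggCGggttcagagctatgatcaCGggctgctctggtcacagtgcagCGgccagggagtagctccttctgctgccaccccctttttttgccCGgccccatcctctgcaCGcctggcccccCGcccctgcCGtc
Kcnip4: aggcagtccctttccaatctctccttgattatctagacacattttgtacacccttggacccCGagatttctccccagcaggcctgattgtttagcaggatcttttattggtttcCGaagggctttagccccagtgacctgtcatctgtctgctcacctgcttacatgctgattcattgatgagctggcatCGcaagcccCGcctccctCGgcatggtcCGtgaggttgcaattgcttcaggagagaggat
Kcnj6: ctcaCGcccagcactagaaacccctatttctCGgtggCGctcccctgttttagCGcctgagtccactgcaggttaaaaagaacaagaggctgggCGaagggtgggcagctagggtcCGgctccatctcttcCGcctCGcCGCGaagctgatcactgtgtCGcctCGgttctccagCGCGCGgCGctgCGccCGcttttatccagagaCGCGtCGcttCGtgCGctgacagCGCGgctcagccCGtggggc
Kcna10: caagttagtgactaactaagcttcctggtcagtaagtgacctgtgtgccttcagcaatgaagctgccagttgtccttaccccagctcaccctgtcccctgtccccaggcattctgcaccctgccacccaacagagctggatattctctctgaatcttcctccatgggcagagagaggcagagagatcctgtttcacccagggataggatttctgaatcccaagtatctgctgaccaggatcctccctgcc
In GRCm38.p6 these are chr17:83631896-83632145 for Kcng3 (minus strand), chr7:45405710-45405959 for Kcna7 (plus), chr17:52602459-52602708 for Kcnh8 (plus), chr5:49285660-49285909 for Kcnip4 (minus), chr16:94997697-94997946 for Kcnj6 (minus) and chr3:107182893-107183142 for Kcna10 (plus). The start used for Kcnip4 lies inside the gene's bounds. The promoter of Kcnh8 is more CpG-rich than that of Kcna7, although their midpoint bins were in the most B-like and the most A-like class. The Kcnh8 promoter lies in another bin than the midpoint, and the label of that bin is not given here.

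The first comparison asks where subcompartments differ after knockdown of Brg1. In Brg1KD cells 8 of 91 potassium channel genes (8.79%) lay in bins called by limma, 3 towards A and 5 towards B, each by 1 class. Of all protein-coding genes 3.48% were called, 1.49% towards A and 1.99% towards B. Inward rectifiers made up 4 of the 8 (Kcnj1, Kcnj5 and Kcnj6 towards B, Kcnj15 towards A), auxiliary subunits 3 (Kcnmb1 and Kcnrg towards A, Kcnmb2 towards B) and voltage-gated subunits 1 (Kcnv1, towards B). None of the 14 two-pore and 8 calcium- or sodium-activated genes was called.

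Kcnj6, on chromosome 16, encodes GIRK2, a neuronal channel opened by G proteins, and was the only called member that changed sides. It was at B.1.1 in both Brg1KD libraries, against A.2.2 in both Ino80KD and both Control libraries. Of all protein-coding genes 0.417% changed to A and 0.628% to B in both libraries against both Control libraries, and of the members 0 and 1. The 4 called bins span chr16:94800001-95000000 and take in the start of transcription. Its neighbour Kcnj15, an inward rectifier of epithelia, moved the other way: it was at B.1.1 in both Brg1KD libraries, against B.1.2 in both Ino80KD and both Control libraries, over 6 called bins at chr16:95000001-95300000. Adjacent called runs thus met at the same class, and the 2 genes lay in 1 segment in both Brg1KD libraries and in different segments in the other 4. Kcnj6 minus Control was -1 class and Kcnj15 minus Control 1 class, each with an adjusted p of 8.00e-08 in limma.

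Kcnj1, the ROMK channel of the kidney, and Kcnj5, the GIRK4 subunit of heart and adrenal gland, lie next to each other on chromosome 9. Both were at B.1.2 in both Brg1KD libraries, against B.1.1 in both Ino80KD and both Control libraries. The same 6 called bins, chr9:32250001-32550000, hold both genes and the midpoint of Fli1, so they count as 1 event. Kcnv1, a silent voltage-gated subunit of neurons on chromosome 15, was at B.2.2 in both Brg1KD libraries, against B.2.1 in both Ino80KD and both Control libraries, in a single called bin.

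Kcnmb1 encodes the beta subunit that makes BK channels of smooth muscle sensitive to calcium. It was at B.1.2 in both Brg1KD libraries, against B.2.1 in both Ino80KD and both Control libraries, in 1 called bin on chromosome 11. The gene lies within the bounds of Kcnip1, whose own midpoint was at B.1.2 in all libraries except Control replicate 2, at B.2.1. Kcnrg, a regulator that interferes with the assembly of voltage-gated channels, was at A.1.1 in both Brg1KD libraries, against A.1.2 in both Ino80KD and both Control libraries, in a called run of 250 kb with Spryd7 and Trim13. Kcnmb2, an inactivating beta subunit of BK channels on chromosome 3, was at B.1.2 in both Brg1KD and both Ino80KD libraries, against B.1.1 in both Control libraries. Its called run of 350 kb had the same bounds in both knockdowns, which share their controls and 1 fit. Inside the gene the run ended where Ino80KD replicate 2 turned to B.1.1, while both Brg1KD libraries stayed at B.1.2. The equal bounds are therefore no measure of a shared extent.

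**Figure D3:**
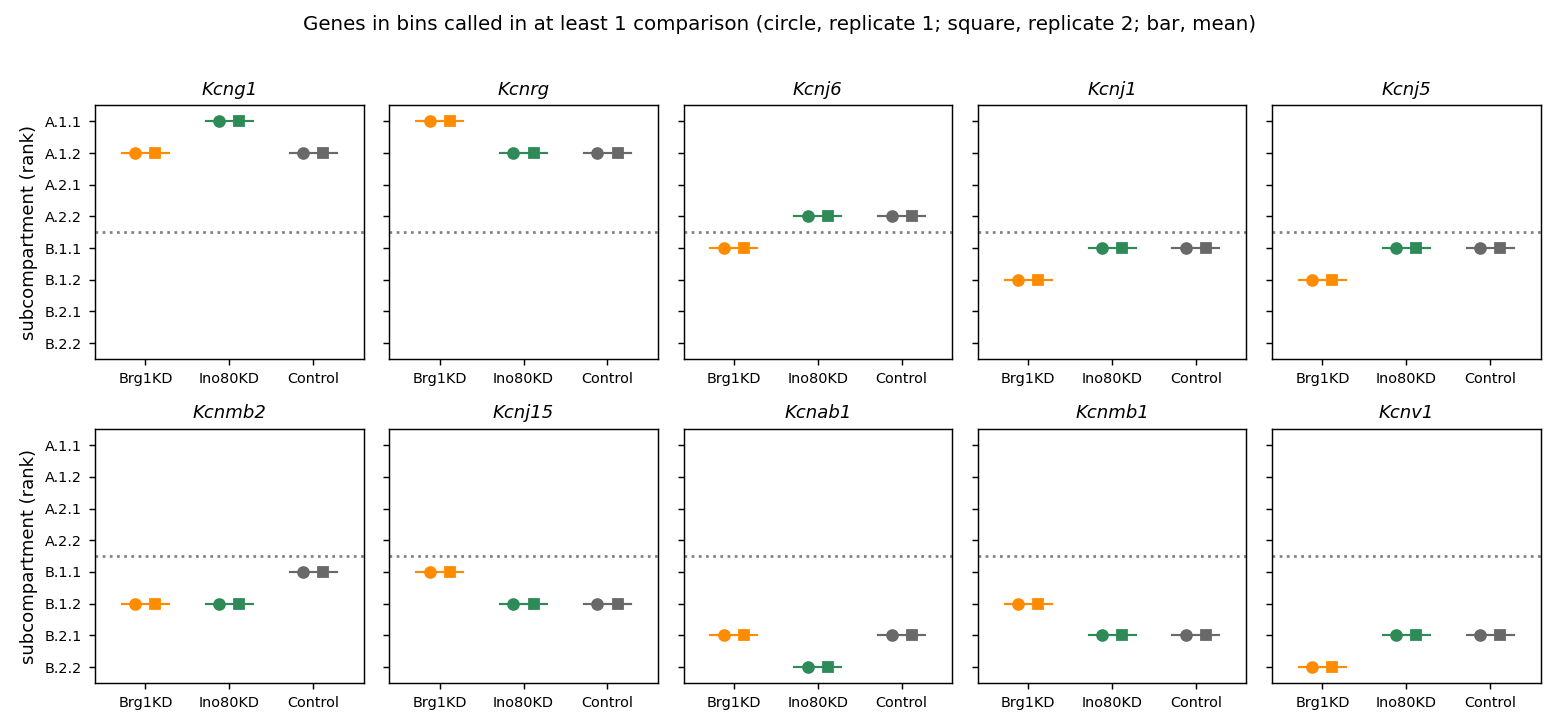
Subcompartment (vertical axis, rank order from B.2.2 to A.1.1, dotted line the A/B border) of the 10 potassium channel genes in bins called in at least 1 comparison, in Brg1KD, Ino80KD and Control libraries (horizontal axis; circles replicate 1, squares replicate 2, bars the mean). Replicates of every group coincide for all 10 genes, each difference is 1 class, and only Kcnj6 lies across the border.

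The limma calls need care, because they rest on bins in which the 2 libraries of every group agree exactly. Such bins made up 39.7% of all bins and held 39 of the 91 members, and all called members lay in them, with the standard error at the lower limit of the fit (0.0022 classes). Their p-values are not calibrated, and at an unadjusted p under 0.05 the counts were the same. With a common variance for all bins, none of the 8 genes was called and Kcna6 was. A count without a model, in which both Brg1KD libraries lay beyond both Control libraries, gave 6 members towards A and 6 towards B, against 3.29% and 4.34% of all protein-coding genes. The members it added were Kcna6, Kcnc1, Kcnk5 and Kcnk16. Kcnc1, Kcnk5 and Kcnk16 differed by 1 class with no spread in Brg1KD or Control, as the called genes did. Only their Ino80KD libraries disagreed, so being called does not set the 8 genes above them. Kcna6, a delayed rectifier subunit, was at A.2.2 in both Brg1KD libraries, A.2.2 and A.1.2 in Ino80KD, and A.2.1 and A.1.2 in Control. The neighbours Kcnk5 and Kcnk16 were at A.1.1 in both Brg1KD libraries, A.1.2 and A.1.1 in Ino80KD, and A.1.2 in both Control libraries. With batch as a block Kcnh1 was also called, for 9 members in all. It was 1 class lower than Control in both batches, with B.1.2 and B.1.1 in Brg1KD, against B.1.1 and A.2.2 in Control.

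Over all 91 members the mean shift was -0.066 classes in Brg1KD minus Control and the median 0.0, beside -0.0046 and 0.0 over all genes. By family the mean shift was -0.28 for voltage-gated, 0.22 for auxiliary, -0.10 for inward rectifier, 0.14 for two-pore and 0.063 for calcium- or sodium-activated genes, with a median of 0.0 in each.

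After Ino80 knockdown 3 of 91 potassium channel genes (3.3%) were called against Control, 1 towards A and 2 towards B, beside 2.47% of all protein-coding genes (0.918% towards A, 1.55% towards B). The members' share was thus near the background. Kcng1, a silent subunit that modifies Kcnb channels, was at A.1.1 in both Ino80KD libraries, against A.1.2 in both Brg1KD and both Control libraries. Kcnab1, a cytoplasmic beta subunit that speeds inactivation of Kcna channels, was at B.2.2 in both Ino80KD libraries, against B.2.1 in both Brg1KD and both Control libraries. Kcnmb2 was described above. The shifts were 1, -1 and -1 classes, with an adjusted p of 1.20e-07 each in limma and the same limits as before. With a common variance 0 members were called.

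Both Ino80KD libraries lay beyond both Control libraries in 2 members towards A and 4 towards B, against 1.97% and 2.86% of all genes. Besides the called genes these were Kcnk15 towards A and Kcnd2 and Kcnk1 towards B. For each of them the Ino80KD libraries agreed, as did the Control libraries, and only the Brg1KD libraries disagreed. No member changed to A in both libraries against both Control libraries and 1 changed to B, against 0.211% and 0.412% of all genes. This was Kcnk1, the TWIK-1 leak channel, which was at B.1.1 in both Ino80KD libraries, A.2.2 and B.1.1 in Brg1KD, and A.2.2 in both Control libraries. Kcnd2, the Kv4.2 channel of dendrites, was at B.2.2 in both Ino80KD libraries, B.2.1 and B.2.2 in Brg1KD, and B.2.1 in both Control libraries. With batch as a block Kcnh1 was called here too, at B.1.2 and B.1.1 in Ino80KD, against B.1.1 and A.2.2 in Control. The mean shift of the members was -0.071 classes and that of all genes -0.024, with medians of 0.0.

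The knockdowns were also set against each other. The difference does not use the Control libraries, but the spread of the fit does, so the calls depend on them too. Between Brg1KD and Ino80KD 9 members (9.89%) were called, 4 towards A and 5 towards B, beside 2.73% of all protein-coding genes (1.42% towards A, 1.31% towards B). Kcnab1, Kcnj15, Kcnmb1 and Kcnrg were higher in Brg1KD, and Kcng1, Kcnj1, Kcnj5, Kcnj6 and Kcnv1 were lower in Brg1KD, each by 1 class, with an adjusted p of 9.78e-08 in limma. All 9 lay in bins with no spread within any group, and with a common variance 0 members were called. Kcnmb2 had the same label in both knockdowns. Only Kcnj6 was in B in both libraries of 1 knockdown and in A in both of the other, beside 0.667% of all genes towards A and 0.388% towards B. Without a model, 6 members lay beyond both libraries of the other knockdown towards A and 8 towards B, against 3.95% and 3.23% of all genes. Those not called were Kcnk2 and Kcnn4 towards A, and Kcna2, Kcna3 and Kcna10 towards B, in neighbouring bins that carried the same labels. Kcnk2 and Kcnn4 differed by 1 class with no spread within either knockdown, and only their Control libraries disagreed. Kcnn4, the intermediate-conductance channel of lymphocytes and red cells, was at A.1.1 in both Brg1KD libraries, against A.1.2 in both Ino80KD libraries, and at A.1.2 and A.1.1 in Control.

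Labels over whole gene bodies were read next, since 56 of the 91 genes touch more than 1 bin. A and B bins were found together in 5 and 6 bodies in Brg1KD, 5 and 7 in Ino80KD, and 4 and 6 in Control. These are 8.93 and 10.7%, 8.93 and 12.5%, and 7.14 and 10.7% of the 56 genes, against 7.18 to 7.54% of all genes over 1 bin. Counting only bins at least 50% inside the body left 2 and 2, 1 and 1, and 1 and 1 genes, so most mixed bodies were mixed in a bin at their edge.

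Kcnab1 had the widest body, with ranks 6 classes apart in the Control libraries. It spans 429 kb on chromosome 3 and 10 bins, of which the bin at its downstream end was at A.1.1 in 5 libraries and at A.1.2 in Ino80KD replicate 1. The other 9 bins were at B.2.2 in both Ino80KD libraries and at B.2.1 in both Brg1KD and both Control libraries. The mean rank over the body was 1.6 and 1.7 in Ino80KD, against 2.6 in both Brg1KD and both Control libraries. The called run in Ino80KD, chr3:64750001-65350000, began upstream of the gene and ended at the boundary with this A bin. Kcnj6 followed with Kcnb2 at 3 classes and Kcnq3 at 4. In Kcnj6 the A.1.1 bins lay at the downstream end, and of its 6 bins 2 were in A in each Brg1KD library, against 6 in each Ino80KD and Control library. The mean rank of the Kcnj6 body was 5.33 in both Brg1KD libraries, 5.5 in both Ino80KD libraries and 6.0 in both Control libraries. Kcnq3, a subunit of the neuronal M current, had an A.2.1 bin at 1 end in both Ino80KD and both Control libraries and none of its 7 bins in A in Brg1KD.

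Kcnmb2 was B.1.2 in all 7 bins in both Brg1KD libraries, and B.1.1 in all 7 in both Control libraries. Its body mean was 3.0 and 3.43 in Ino80KD, where the downstream bins were at B.1.1 in replicate 2. Kcnh1, an ether-a-go-go channel of brain, had 1 label over all 8 bins of each library and moved as a block between libraries, with body means of 3.0 and 4.0 in Brg1KD, 3.0 and 4.0 in Ino80KD, and 4.0 and 5.0 in Control. Kcnd2 had body means of 2.27 and 1.18 in Brg1KD, 1.18 and 1.18 in Ino80KD, and 2.0 and 2.0 in Control, so the Brg1KD libraries differed from each other more than from Control.

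Of the 4 bodies over 500 kb, Kcnq5 was the most uniform, with B.2.1 in all 13 bins of all 6 libraries. Kcnip4, the longest at 1136 kb, had body means of 1.12 and 1.08 in Brg1KD, 1.33 and 1.25 in Ino80KD, and 1.04 and 1.33 in Control. Values of each knockdown overlapped with Control, and both Brg1KD values lay below both Ino80KD values. Kcnma1, at 713 kb, had 2.62 and 2.88 in Brg1KD, 3.0 and 2.56 in Ino80KD, and 3.44 and 2.94 in Control. Both Brg1KD values for Kcnma1 lay below both Control values, and no bin of it was called.

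**Figure D4:**
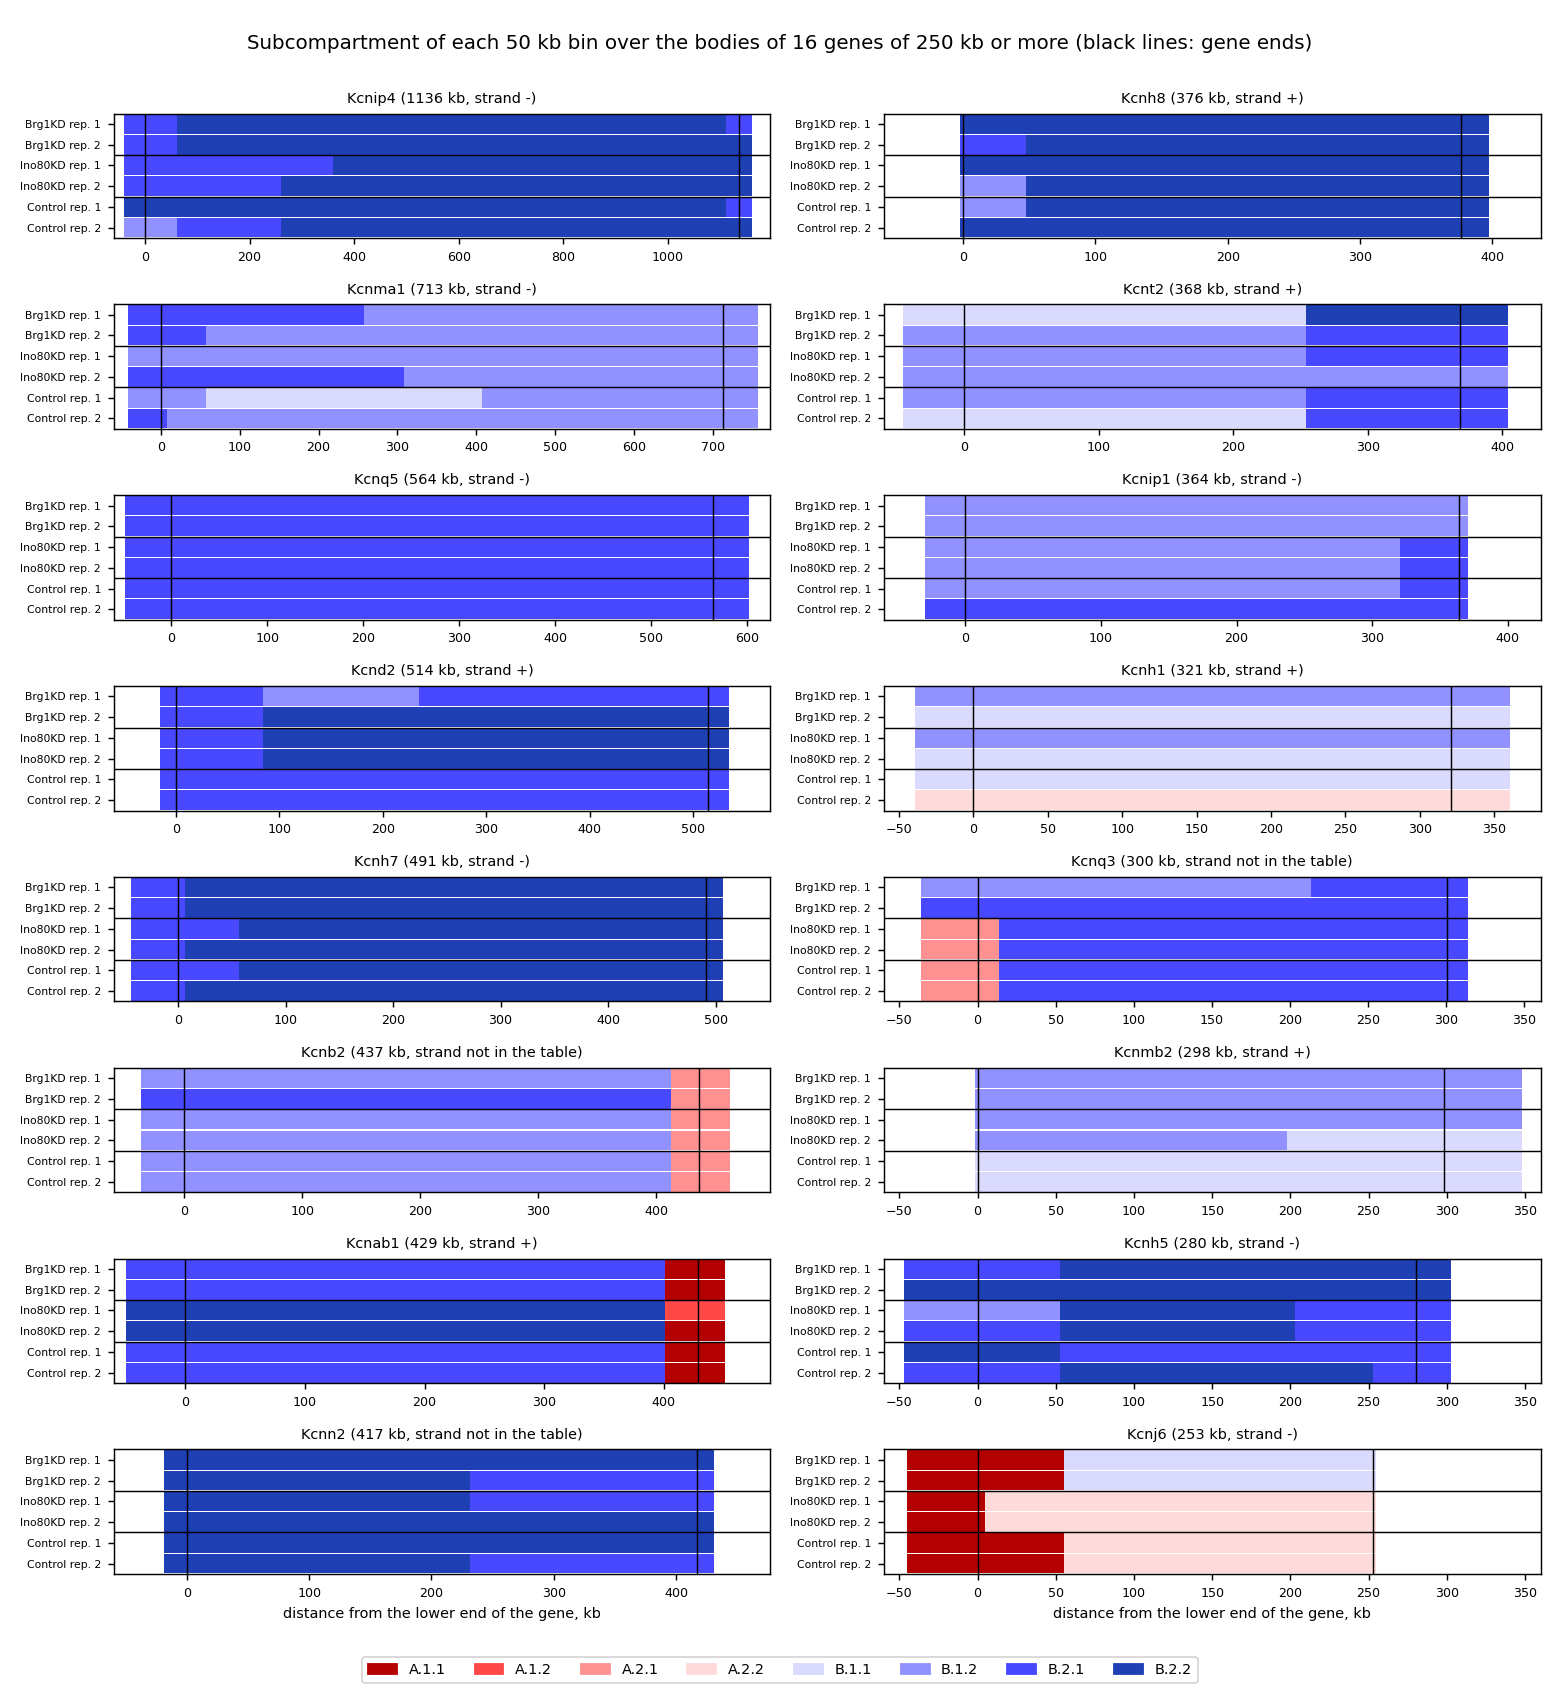
Subcompartment (colour) of each 50 kb bin over the bodies of the 16 potassium channel genes of 250 kb or more, in the 6 libraries (vertical axis, Brg1KD on top, Control at the bottom), against the distance from the lower end of the gene in kb (horizontal axis, black lines the gene ends). Kcnq5 is uniform, Kcnab1 is darker in the Ino80KD libraries over 9 of its 10 bins, and the upstream part of Kcnj6 is in B in the Brg1KD libraries alone.

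Loops, the pairs of 10 kb anchors that the authors list for each group, were taken at a gene end when the first or last base of the gene lay in an anchor. There is 1 list a group, so no difference between lists has a replicate. Ends of 14 members (15.4%) lay in an anchor in the Brg1KD list, of 17 (18.7%) in the Ino80KD list and of 17 (18.7%) in the Control list, against 11.7, 11.3 and 11.7% of all protein-coding genes. In all, 24 members had 35 distinct loops, with a median span of 280 kb (70 to 1580), against 250 kb over all loops of the Control list. The same anchors were listed in all 3 groups for 6 of the 35 loops (17.1%), against 16.1% of all loops. With anchors within 10 kb taken as the same, 18 of the 35 were in all 3 lists.

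The same anchors appeared in all 3 lists for 6 loops. Kcnk9 had 2 of them from the same anchor, 1 of 490 kb to the end of Trappc9 and 1 of 640 kb to Ago2, which crossed from B.1.1 at Kcnk9 to A.1.1 at Ago2 in both Control libraries. Kcnk9, Trappc9 and Ago2 lie together on chromosome 15. Kcnh1 was joined to Hhat over 530 kb. Kcnj1 had a loop of 700 kb, in both Control libraries from B.1.1 to B.2.2, with no end of a protein-coding gene at the far anchor. Kcnc4, a voltage-gated subunit, had a loop of 110 kb and Kcne2, an auxiliary subunit, one of 340 kb, also with no gene end at the far anchor. Ends of no protein-coding gene lay at the far anchor of 14 loops.

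Other loops were listed in some groups and had no match within 10 kb in the rest. A loop of 90 kb joined Kcna2 and Kcna10 in the Brg1KD and Control lists and was not in the Ino80KD list. Kcns3, a silent subunit, was joined over 1580 kb to Osr1, the gene of a transcription factor of kidney development, in the Ino80KD and Control lists and not in the Brg1KD list. Loops of Kcnn3 to Il6ra (370 kb), of Kcnk4 to the anchor of Rasgrp2 and Nrxn2 (520 kb) and of Kcnj4 to Fam227a (160 kb) were in the Ino80KD list alone. Loops of Kcnj11, the pore subunit of the ATP-sensitive channel of beta cells, to Ush1c (100 kb), of Kcnh5 to Rhoj (210 kb) and within Kcnq3 (250 kb) were in the Brg1KD list alone. Kcnip1 held a loop of 180 kb inside its body in all 3 lists, and Kcnip4 one of 250 kb.

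**Figure D5:**
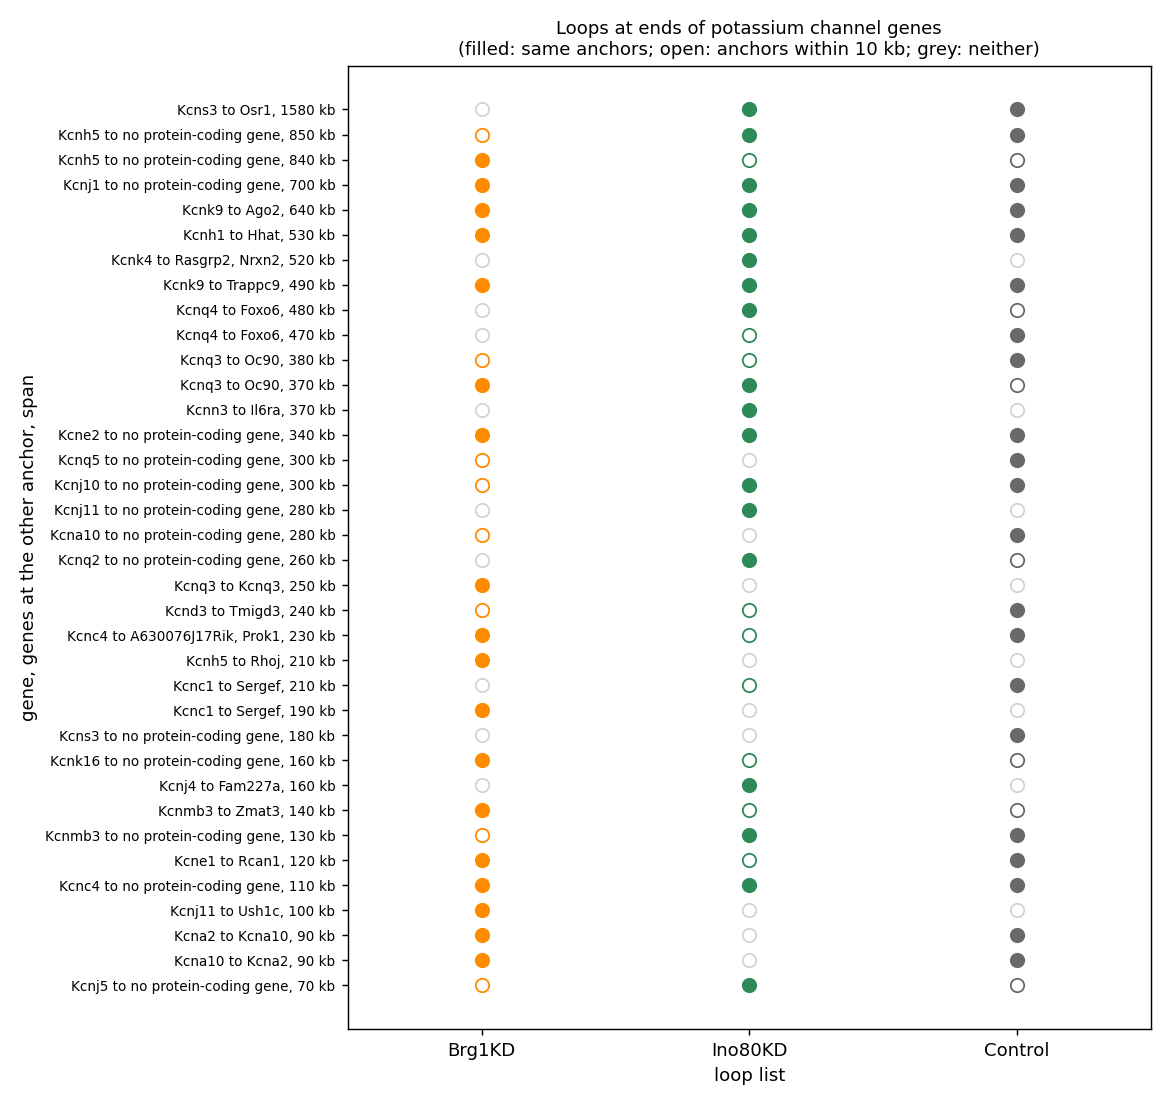
Loops with an anchor at an end of a potassium channel gene (vertical axis, by span in kb, with the genes that have an end in the other anchor) in the Brg1KD, Ino80KD and Control lists (horizontal axis; filled, same anchors; open, anchors within 10 kb; grey, neither). The loop between Kcna2 and Kcna10 is drawn for both genes, and 6 loops are filled in all 3 lists.

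Loops and compartment were then read together. The compartment was that of the midpoint bin, which need not be that of the anchor at the gene end. By that rule a smaller share of looped than of other members lay in A in the Brg1KD and Control lists. The shares were close in the Ino80KD list. Looped members numbered 14, 17 and 17 in the Brg1KD, Ino80KD and Control lists, so few genes carry these shares. Of the 35 loops, 21 had the anchor at the gene in A in both Control libraries and 13 had it in B. In the Brg1KD list 50.0% of the looped members lay in A, against 59.1% of the others, in the Ino80KD list 58.8 against 58.1%, and in the Control list 47.1 against 64.2%. Over all protein-coding genes looped genes were in A more often, with 79.7 against 70.8% for Brg1KD, 79.6 against 70.3% for Ino80KD and 80.1 against 70.8% for Control.

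Related genes were read in the same way. In Control the mean rank was 4.82 for sodium channel (Scn), 5.5 for calcium channel (Cacn) and 5.88 for Hcn genes. It was 5.11 for further partners of potassium channels, beside 5.29 for the 91 members. In that order 71.4, 78.0, 75.0 and 64.3% lay in A in Control, beside 61.0% of the members. The same label in all 6 libraries was found for 28.6, 28.0, 75.0 and 57.1%, beside 31.9%. A low mean rank and few unchanged labels were thus not particular to the members. Of 14 further partners of potassium channels on a fixed list, 1 was called in Brg1KD against Control, beside 3.48% of all protein-coding genes. This was Pex5l, at A.2.2 in both Brg1KD libraries, against B.1.1 in both Ino80KD and both Control libraries. In the same comparison 2 of the 14 were at an unadjusted p under 0.05 in limma, and with a common variance 1 was called. Against Control, 0 were called in Ino80KD. Dpp10, which like Dpp6 binds Kv4 channels, was at B.2.2 in all 6 libraries, and Dpp6 at B.2.2 and B.2.1 in Brg1KD, B.2.1 in both Ino80KD libraries and B.1.2 in both Control libraries. Of 14 sodium channel genes (Scn), Scn3b was called towards A in Brg1KD and in Ino80KD against the same Control libraries. Of 25 calcium channel genes (Cacn), 4 were called towards B in Brg1KD (Cacna2d2, Cacng1, Cacng4 and Cacng5) and 1 in Ino80KD (Cacna2d2), beside the 3.48% and 2.47% of all protein-coding genes given above. Cacng1, Cacng4 and Cacng5 were also called together between the knockdowns. Whether they share called bins is not given here, so the 4 need not be separate events. With a common variance 0 Scn and 0 Cacn genes were called in either knockdown. None of 4 Hcn genes was called by limma in either knockdown, and 0 were at an unadjusted p under 0.05 or with a common variance.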

How the data were processed

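Hi-C libraries of 6 samples were used as the authors deposited them. Per the submitters' processing notes, the tools were bedtools, HOMER, Juicer 2.0, SAMtools and BWA and the build was mm10. Names of the segment and loop callers were not given in the sources used here. Deposited subcompartment files give a score for each segment, the class rank in 8 equal steps, relative to its own library. The deposited loop lists give anchor positions alone. Each is filed under replicate 2 of its group, but its name says merged, and it was treated as 1 list for both libraries.

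Ranks from 1 to 8 were read for 50 kb bins, and the 47717 bins labelled in all 6 libraries were fitted with limma 3.58.1 (R 4.3.3, lmFit and eBayes, 6 libraries in one fit, Benjamini-Hochberg over all bins, threshold 0.05). The fit was tested on simulated data. Fits without 1 library took the lower limit of the spread from the fit of 6. Replicate numbers pair the libraries because the labels name them as batches. Deviations of same-batch libraries correlated across bins with r = 0.0984 (Brg1KD and Control), 0.1023 (Ino80KD and Control) and 0.0885 (Brg1KD and Ino80KD). Genes, midpoints and ends come from the RefSeq table of GRCm38.p6, which mm10 names, and promoters and strand from RefSeq for 68 of 91 members. Of all protein-coding autosomal genes 290 had no label at the midpoint in all 6 libraries and were left out.

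Named were all members in called bins, up to 10 others per comparison whose libraries lay beyond both of the other group, the 3 highest and lowest of each family, bodies over 500 kb, the 10 with the widest bodies, and up to 30 members with loops. Other members named beside them were chosen after their values were seen. The members and lists were chosen with earlier results of these data known. Alternatives were a replicate block, a common variance, leaving out each library, placing genes by start or whole body, and other matches of bins and loops. Depth is unknown, so no interval for counting error is given. The values of 1 member are not reported here by name and it is not drawn in the plot of members by library, but it is kept in all counts.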

Additional observations from a re-analysis of the deposited data

Results flagged for a closer look

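The contrast of Brg1KD against Ino80KD in the limma fit called 9 potassium channel genes. All 9 lay in bins with no spread within any group, where the p-values are not calibrated, and with a common variance 0 were called. The difference in rank was 1.0 class for Kcnab1, Kcnj15, Kcnmb1 and Kcnrg, and -1.0 class for Kcng1, Kcnj1, Kcnj5, Kcnj6 and Kcnv1. Kcnab1 and Kcng1 had the same label in Brg1KD and Control cells, and the other 7 the same label in Ino80KD and Control cells. Both libraries of each group agreed for all 9, and Kcnj1 and Kcnj5 share their called bins.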

How the results depend on the processing

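With the replicate block (batch as a term) 9 members were called in Brg1KD minus Control, 4 in Ino80KD minus Control and 9 in Brg1KD minus Ino80KD. The called genes without the block were all called with it, and Kcnh1 was added in both comparisons with Control. With a common variance the counts were 1, 0 and 0 in that order, and with the replicate block and a common variance together, a choice made after seeing the data, 1, 0 and 3 (Kcna2, Kcna3 and Kcna10). None of the genes called with a variance per bin was among them. Leaving out 1 library gave 11 to 15 members in Brg1KD minus Control, 6 to 10 in Ino80KD minus Control and 11 to 15 in Brg1KD minus Ino80KD. The highest counts came without Brg1KD replicate 1 (15 and 15) and without Control replicate 1 (10). A fit without 1 library has fewer values in which spread can be seen. Without either Control library Brg1KD minus Control had 13, and without Brg1KD replicate 2 Brg1KD minus Ino80KD had 14. Without any other library Ino80KD minus Control had 6. Counting a gene when any bin of its body was called gave 5 members in Ino80KD minus Control and 14 in Brg1KD minus Ino80KD. For none of these settings is the share of all protein-coding genes given here. The counts therefore do not show whether the members differ from other genes under a setting. Called bins over all chromosomes also changed with the setting. In Brg1KD minus Control they numbered 2547 with the replicate block and 1622 with a common variance. The numbers were 1679 and 326 in Ino80KD minus Control, and 2057 and 515 in Brg1KD minus Ino80KD. The mean shift in Brg1KD minus Ino80KD, 0.0055 classes, was -0.0549 with genes placed by their start. The share of members in A was lower in both knockdowns than in Control under each placement and without each library. The difference was 1.65 to 4.95 percentage points. Leaving out 1 library could not change this order, because each Control library had more members in A than each knockdown library. Bodies with A and B bins averaged 2.0 in Brg1KD, 1.0 in Ino80KD and 1.0 in Control when only bins at least 50% inside counted. A loop end within 10 kb of the anchor gave 38, 34 and 37 members in the Brg1KD, Ino80KD and Control lists, and the start of transcription alone 8, 10 and 10. Members with a loop in all 3 lists numbered 5, or 13 with anchors matched within 10 kb. The 32 shifts of named genes all kept their side of the threshold with the replicate block. With a common variance 11 kept it, 1 passed it anew and 20 no longer passed it. With both together 8 kept it, 4 passed it anew and 20 no longer passed it. The sign of these shifts could not change, because the genes were named for libraries that do not overlap between the 2 groups. Balanced batches leave the shift itself as it is, so the constant sign is no sign of stability. The causes were not tested. Ranks are steps of 1 class relative to each library and the depth is unknown, so shifts under 1 class cannot be seen in a single library.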

Other observations

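The labels also differed between the 2 batches. In 5 members (5.49%) the library of batch 2 ranked above that of batch 1 in each of the 3 groups, against 1.33% of all protein-coding genes, and in 0 members it ranked below in each, against 0.952% of all genes. The 5 were Kcnab2, Kcne1, Kcnh1, Kcnj9 and Kcnmb3. Kcnab2, a beta subunit of Kcna channels, was at A.1.2, A.2.1 and A.2.1 in the Brg1KD, Ino80KD and Control libraries of batch 1, and at A.1.1 in all 3 libraries of batch 2. Kcnj9, the GIRK3 subunit, Kcnmb3, a BK beta subunit, and Kcne1 were at A.1.2 in all 3 libraries of batch 1 and at A.1.1 in all 3 of batch 2.

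The 8 members with labels on both sides of the A/B border were Kcna1, Kcna5, Kcnd3, Kcnh1, Kcnj6, Kcnk1, Kcnk18 and Kcnmb4, and all their labels there were A.2.2, B.1.1 or, for Kcnh1, B.1.2. Only Kcnj6 had no disagreement between libraries of a group. Kcnd3, the Kv4.3 channel, was at B.1.1 and A.2.2 in Brg1KD, B.1.1 in both Ino80KD libraries, and A.2.2 and B.1.1 in Control. Kcnmb4, the neuronal BK beta subunit, was at B.1.1 in both Brg1KD libraries, and at A.2.2 and B.1.1 in both Ino80KD and Control cells.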
